A study of Homo sapiens with 8 samples.

Results

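The HOX cluster genes encode homeodomain transcription factors and lie in 4 clusters, HOXA, HOXB, HOXC and HOXD, on chromosomes 7, 17, 12 and 2. They were taken here as every gene of the array's annotation whose symbol is HOXA, HOXB, HOXC or HOXD followed by digits only, antisense genes left out. Of 18132 genes with a probe set of their own, 27 were HOX genes: 1 of HOXA (HOXA2), 10 of HOXB, 9 of HOXC and 7 of HOXD. RefSeq lists 39 such genes, and the other 12 were not analysed here as single genes; HOXD3 and HOXD11 share a probe set with a neighbour, and the remaining 10 belong to HOXA. A gene's value was the log2 normalized intensity of its brightest probe set by mean over the 8 arrays.

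RNA came from KBM7, a near-haploid chronic myeloid leukaemia cell line in which a single gene-trap insertion can disable a gene. Wild-type (WT) cells and a line with a trapped JAK2 were left unstimulated or stimulated with IFN-gamma (100 ng/ml, 6 hours), and WT cells and a line with a trapped TNFRSF1A were left unstimulated or stimulated with TNF-alpha (10 ng/ml, 6 hours). JAK2 passes on the IFN-gamma signal as a kinase, and TNFRSF1A is a receptor for TNF-alpha. The 8 arrays held 2 of unstimulated WT, replicate 1 for the IFN-gamma experiment and replicate 2 for the TNF-alpha experiment, and 1 of each other condition. The labels name 1 mutant line per gene, so an effect of the lost gene and a property of that line cannot be told apart, and nothing says whether the arrays came from separate cultures.

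In the embryo, HOX genes are switched on in the order in which they lie along their cluster and give cells their position along the body axis. Blood stem and progenitor cells use many of the same genes, mostly of the HOXA, HOXB and HOXC clusters, and lower them as they mature. KMT2A and its partners keep the clusters active, Polycomb complexes keep them silent, and PBX and MEIS proteins bind DNA together with HOX proteins. HOXD genes are known mainly from limb and genital development, where HOXD13 is the last gene of its cluster to be used.

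A level is called expressed here from log2 6 upward, and a difference of 2 arrays is called from 2-fold upward, without a p-value because each condition but 1 had a single array. The upper quartile of 23 background probe sets ran from 5.76 to 6.04 over the arrays, and values below it are said to lie in the background range. The brightest background probe set read 10.24 to 10.67, so the range does not cover all of them. Where 1 value of a difference lay there, it was also set to the quartile, which gives a more cautious difference ("at least", or the bound). That bound takes the background to be at the quartile, and it is no guarantee, because some background probe sets read higher. Over the 11529 genes that reached log2 6 on any array, the 2 unstimulated WT arrays differed with an SD of 0.38. Array medians ran from 63.9 to 66.9 on the intensity scale. JAK2 read 5.08 and 5.32 in its mutant against 6.14 to 6.81 in WT, and TNFRSF1A 6.56 and 6.55 in its mutant against 9.23 to 9.72. Among myeloid and progenitor markers, LYZ read 8.59 to 8.74, KIT 7.42 to 8.23 and CD34 7.64 to 8.15 in WT cells. There MPO stayed at 6.14 to 6.51, and ELANE, AZU1, PRTN3, SPI1 and the progenitor marker PROM1 stayed below 6. Of 4 fibroblast and 3 endothelial markers, 0 stayed at log2 6 or more on all 8 arrays. The B-cell factor gene PAX5 (9.25 to 9.57), the T-cell receptor chain gene CD3D (8.71 to 10.03) and the keratin gene KRT18 (10.37 to 10.88) did so. Each was the 1 gene of its list that did, of 3 B-cell, 4 T-cell and 4 epithelial markers measured. The erythroid and megakaryocyte lists each had 1 gene at log2 6 or more on all arrays, of 3 and 4 measured.

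The start of HOXD13 is shown first because this gene had the largest rise of the 27. The start of HOXD12, the next HOX gene beside it, is shown for comparison because its signal stayed in the background range on every array. Both are RefSeq windows of GRCh38.p14, from 250 bases before to 50 after the start and on the plus strand, at chr2:176092471-176092770 and chr2:176099545-176099844, and capitals mark CpG dinucleotides.
HOXD13: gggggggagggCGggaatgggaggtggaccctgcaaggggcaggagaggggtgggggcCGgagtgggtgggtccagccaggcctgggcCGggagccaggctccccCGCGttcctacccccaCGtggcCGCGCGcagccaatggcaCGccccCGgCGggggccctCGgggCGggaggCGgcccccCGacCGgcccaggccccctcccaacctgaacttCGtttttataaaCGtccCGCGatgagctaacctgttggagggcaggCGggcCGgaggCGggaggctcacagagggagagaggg
HOXD12: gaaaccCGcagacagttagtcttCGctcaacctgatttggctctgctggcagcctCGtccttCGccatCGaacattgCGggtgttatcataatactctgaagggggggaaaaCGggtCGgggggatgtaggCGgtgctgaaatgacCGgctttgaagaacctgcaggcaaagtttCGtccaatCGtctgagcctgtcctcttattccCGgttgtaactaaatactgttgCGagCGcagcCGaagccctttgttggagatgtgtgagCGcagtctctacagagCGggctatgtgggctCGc
The HOXD13 window held 24 CpG dinucleotides at a GC content of 74.0%, and the HOXD12 window 19 at 54.3%. RefSeq windows were at hand for 10 of the 27 genes, in 9 distinct places because HOXC4 and HOXC5 share a start. Their CpG counts ran from 4 (HOXD4) to 36 (HOXD1), with a median of 17 against 14 over 27305 promoters of all kinds. A TATA motif, TATAAA on either strand, stood 27 bases before the start of HOXD13 and in no other of the 10, and 12.0% of all promoters held one. CCAAT on either strand was in 9 of the 10 genes' windows (8 of the 9 places), HOXD13 and HOXD12 included, and in 35.7% of all promoters. The STAT motif TTCNNNGAA, a palindrome that JAK-activated factors recognise, was in 0 of the 10 windows and in 7.88% of all promoters. These matches describe letters in a window, not bound sites.

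Of the 27 HOX genes, 9 were expressed on all 4 WT arrays: HOXB2, HOXB3, HOXB4 and HOXB13, HOXC5, HOXC6, HOXC8 and HOXC13, and HOXD10. The anterior HOXB genes were the clearest, since only HOXB2, HOXB3 and HOXB4 stayed at log2 7 or more on all 4 WT arrays. HOXB2, which patterns the hindbrain, read 9.58 and 9.96 in the 2 unstimulated WT arrays, 9.54 with IFN-gamma and 10.09 with TNF-alpha. HOXB3 read 8.31 and 8.88, then 8.56 and 8.92 with the cytokines. HOXB4, a gene used to expand blood stem cells, read 8.45 and 8.43, then 8.56 and 8.50, so its 4 WT values spanned 0.13. All 4 WT values of each gene lay above log2 8 and above the background range. The brightest background probe set still read higher than these genes on each WT array. The second HOXB4 probe set read 5.82 to 6.16 in WT. The other HOXB3 probe sets read 4.68 to 6.04 in WT, in or near the background range.

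**Figure D1:**
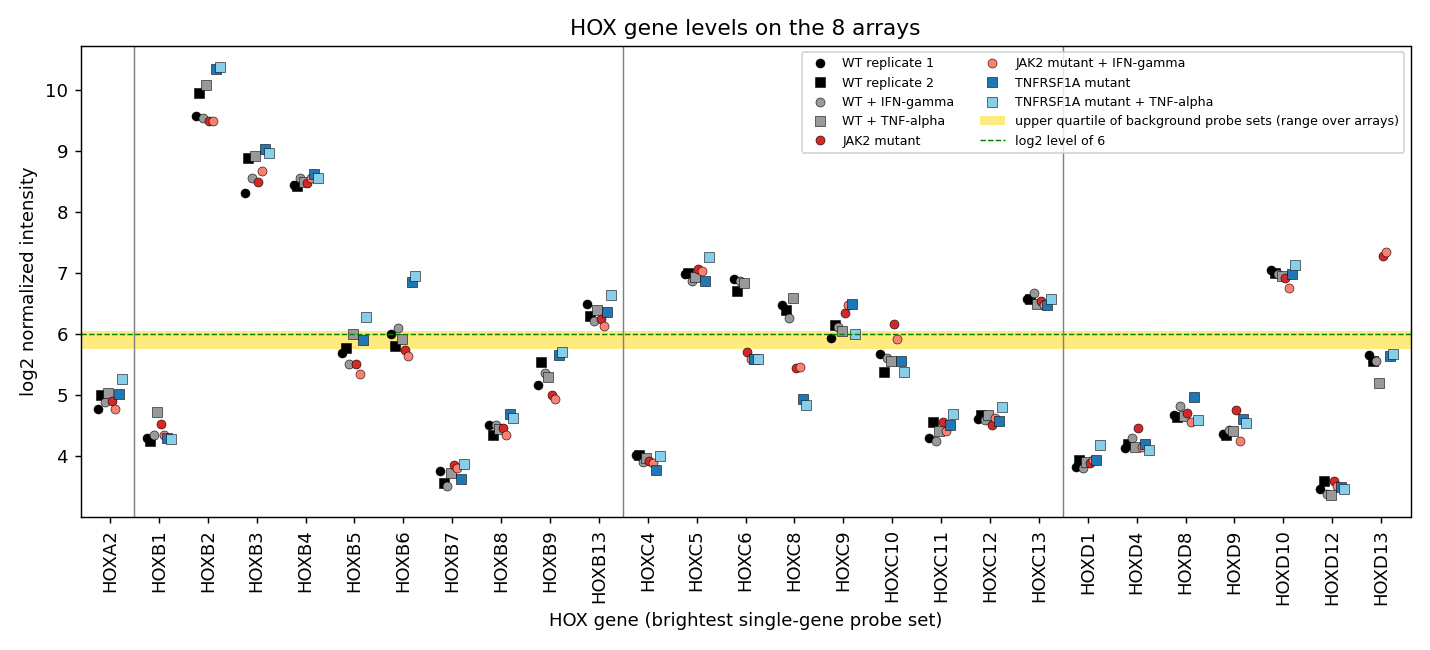
Log2 normalized intensity of the 27 HOX genes (x axis, by cluster) on the 8 arrays. Each point is 1 array, coloured by cell line and cytokine, the band is the range of the background quartile over the arrays (5.76 to 6.04) and the dashed line is log2 6. HOXC6 and HOXC8 lie above the band on all 4 WT arrays and below it on all 4 mutant arrays, and HOXD13 lies above it only in the JAK2 mutant.

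The HOXC5 values were 6.98 and 7.01 in unstimulated WT, 6.88 with IFN-gamma and 6.93 with TNF-alpha. HOXC6, which is active in the trunk of the embryo, read 6.91 and 6.71, then 6.87 and 6.83. Its neighbour HOXC8 read 6.47 and 6.39, then 6.27 and 6.59. HOXC13, known for hair and nail, stayed between 6.50 and 6.67 in WT. HOXD10 stayed between 6.95 and 7.05 and HOXB13, a prostate gene, between 6.22 and 6.49. These 6 genes were above the line by a small margin. The other single-gene HOXD10 probe set read 5.05 to 5.48 on all arrays, in the background range, and 3 other HOXB13 probe sets read 3.71 to 4.92.

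Another 5 genes reached log2 6 on at least 1 array without doing so on all 4 WT arrays. HOXB5, HOXB6 and HOXC9 straddled the line in WT, at 5.50 to 6.01, 5.80 to 6.11 and 5.94 to 6.15. HOXC10 (5.38 to 5.67) and HOXD13 (5.20 to 5.66) stayed in the background range in WT. The 13 remaining genes were below log2 6 on every array, at 3.35 to 5.71: HOXA2, HOXB1, HOXB7, HOXB8, HOXB9, HOXC4, HOXC11, HOXC12, HOXD1, HOXD4, HOXD8, HOXD9 and HOXD12. By array, 9 to 11 of the 27 genes were at log2 6 or more, where 58.9% to 61.2% of all genes were. So, by the brightest probe set, 4 of 10 HOXB, 4 of 9 HOXC and 1 of 7 HOXD genes were expressed in WT KBM7 cells. The HOXD gene, HOXD10, was so by 1 of its 2 single-gene probe sets. HOXB3 and HOXB13 were so by 1 of 4 probe sets each, and HOXB4 and HOXC8 by 1 of 2. HOXA is represented by HOXA2 alone, at 4.77 to 5.26.

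Neither cytokine moved a HOX gene 2-fold in WT cells. With IFN-gamma, 0 of the 14 HOX genes that reached log2 6 changed, where 0.607% of all genes compared were higher and 0.0% lower. Their differences ran from -0.27 (HOXB13) to 0.24 (HOXB3), with a median of -0.05 beside -0.02 for all genes. With TNF-alpha, 0 of 14 changed, where 0.312% of all genes were higher and 0.00867% lower. The differences ran from -0.36 (HOXD13, within the background range) to 0.23 (HOXB5), with a median of 0.08 beside 0.01. In the JAK2 mutant given IFN-gamma the differences ran from -0.24 (HOXC10) to 0.18 (HOXB3), and in the TNFRSF1A mutant given TNF-alpha from -0.48 (HOXC9) to 0.39 (HOXC5). No gene at all passed 2-fold in those 2 comparisons, a background of 0.0%. Over all genes compared, these 4 comparisons had an SD of 0.22, 0.20, 0.15 and 0.12. With 1 array per condition, responses smaller than 2-fold were not tested.

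**Figure D2:**
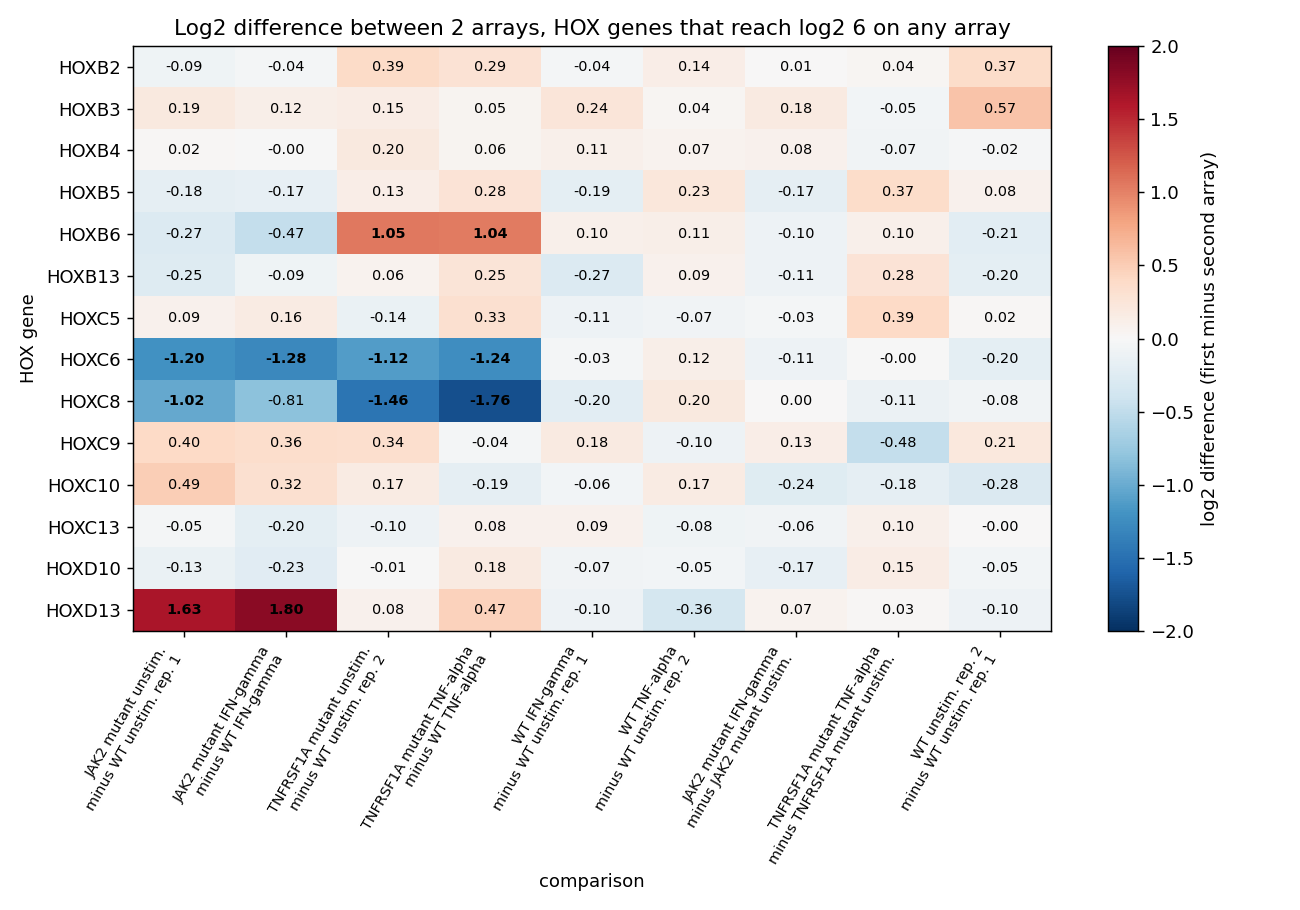
Log2 difference between 2 arrays for the 14 HOX genes (rows) that reach log2 6 on any array, in 9 comparisons (columns). Colour runs from blue (lower in the first array) to red (higher), and bold values pass 2-fold. All bold values stand in the 4 mutant columns and belong to HOXB6, HOXC6, HOXC8 and HOXD13.

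By the 2-fold rule the mutant lines differed from WT in 4 HOX genes. HOXC6 and HOXC8 were lower in both mutants, HOXD13 was higher in the JAK2 mutant and HOXB6 was higher in the TNFRSF1A mutant. Each mutant was set against its own WT arrays at the same treatment, so each gives 2 pairs, and the 4 pairs share no array. In the unstimulated JAK2 mutant 1 of 14 genes was higher and 2 were lower, where 0.226% and 1.91% of all genes were. In the pair with IFN-gamma the counts were 1 and 1, where the backgrounds were 0.347% and 2.67%. In the unstimulated TNFRSF1A mutant 1 was higher and 2 were lower against 0.373% and 0.607%, and in the pair with TNF-alpha 1 and 2 against 0.304% and 0.919%. The other 10 genes did not pass 2-fold in any of the 4 pairs, and the medians over the 14 genes were -0.07, -0.06, 0.11 and 0.13, beside 0.03, 0.03, 0.04 and 0.01 for all genes. HOXC6 and HOXC8 reached log2 6 on the WT arrays alone, and HOXD13 on the JAK2 mutant arrays alone. These genes are thus among the 14 only through a group compared. The filter was the same for all genes, but the counts and shares, here and below, only describe the calls.

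HOXC6 was the 1 HOX gene that passed 2-fold in all 4 pairs, as 0.243% of all genes did in that direction. Its values were 6.91, 6.71, 6.87 and 6.83 in the WT arrays against 5.70 and 5.59 in the JAK2 mutant and 5.59 and 5.59 in the TNFRSF1A mutant. No mutant value reached the lowest WT value, and all 4 lay in the background range. Against the matched WT array the differences were -1.20 unstimulated and -1.28 with IFN-gamma in the JAK2 mutant, and -1.12 unstimulated and -1.24 with TNF-alpha in the TNFRSF1A mutant. With the mutant value set to the background quartile, HOXC6 was lower by at least 1.04, 1.12, 0.70 and 0.79, so only the JAK2 pairs kept 2-fold by that measure. In bulk RNA, a smaller share of cells with HOXC6 and less HOXC6 RNA per cell cannot be told apart.

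A second HOXC6 probe set, designed on another transcript record, read 6.48 to 6.72 in WT. In the mutants it read 4.88 and 4.66 (JAK2) and 4.60 and 4.79 (TNFRSF1A), with differences of -1.83, -1.98, -1.89 and -1.69. These mutant values also lay in the background range, so by the bound this probe set was lower by at least 0.85, 0.88, 0.47 and 0.44, in no pair 2-fold. The third HOXC6 probe set read 3.64 to 3.97 in WT, in the background range, and cannot show a fall. RefSeq gives HOXC4, HOXC5 and HOXC6 the same start, with overlapping gene models, so their probe sets need not separate the 3 genes' transcripts. The HOXC5 probe set read 7.07 and 7.03 in the JAK2 mutant and 6.87 and 7.26 in the TNFRSF1A mutant, with no difference from the matched WT array beyond 0.33. HOXC4 stayed in the background range on every array.

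HOXC8 read 6.47, 6.39, 6.27 and 6.59 in WT, 5.45 on both JAK2 mutant arrays and 4.94 and 4.83 on the TNFRSF1A mutant arrays. Neither mutant overlapped with WT. The differences were -1.02 and -0.81 in the JAK2 mutant, of which the second missed 2-fold, and -1.46 and -1.76 in the TNFRSF1A mutant. The mutant arrays were all in the background range, so they give no order between the mutants, and HOXC8 was lower by at least 0.61, 0.51, 0.38 and 0.55. In both TNFRSF1A pairs HOXC6 and HOXC8 passed 2-fold downward, as 0.546% of all genes did. Both also had TNFRSF1A mutant arrays below all 4 WT arrays with means 2-fold apart, as 0.633% of genes did, and HOXC6 did so in the JAK2 mutant, as 2.53% did. HOXC6 passed downward in both JAK2 pairs, as 1.6% of genes did. The other HOXC8 probe set stayed at 3.55 to 3.97 on all arrays.

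Other HOXC genes did not pass 2-fold. On the far side of HOXC8, HOXC9 read 6.34 and 6.47 in the JAK2 mutant against 5.94 to 6.15 in WT, differences of 0.40 and 0.36. In the TNFRSF1A mutant HOXC9 read 6.49 unstimulated and 6.01 with TNF-alpha, differences of 0.34 and -0.04, so a rise of that size was not particular to the JAK2 mutant. HOXC10 read 6.16 and 5.92 in the JAK2 mutant against 5.38 to 5.67 in WT, differences of 0.49 and 0.32. The WT values of HOXC10 were in the background range, and by the bound its differences were at least 0.19 and 0.01. HOXC5, HOXC9, HOXC10 and HOXD13 made 4 of 14 HOX genes whose JAK2 mutant arrays lay above all 4 WT arrays at any size, as 29.1% of all genes did. For 5 of 14 (HOXB2, HOXB6, HOXC6, HOXC8 and HOXD10) they lay below, as 20.1% did. In the TNFRSF1A mutant 3 lay above (HOXB2, HOXB3 and HOXB6) and 2 below, where 15.2% and 12.4% of all genes did. HOXC13 differed from WT by -0.20 to 0.08 over the 4 pairs. Of 6 listed neighbours outside the cluster (ATP5MC2, CALCOCO1, SMUG1, CBX5, HNRNPA1 and NFE2), 0 passed 2-fold in either mutant. The highest value among them was 0.80, for the erythroid factor gene NFE2 in the JAK2 mutant with IFN-gamma.

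**Figure D3:**
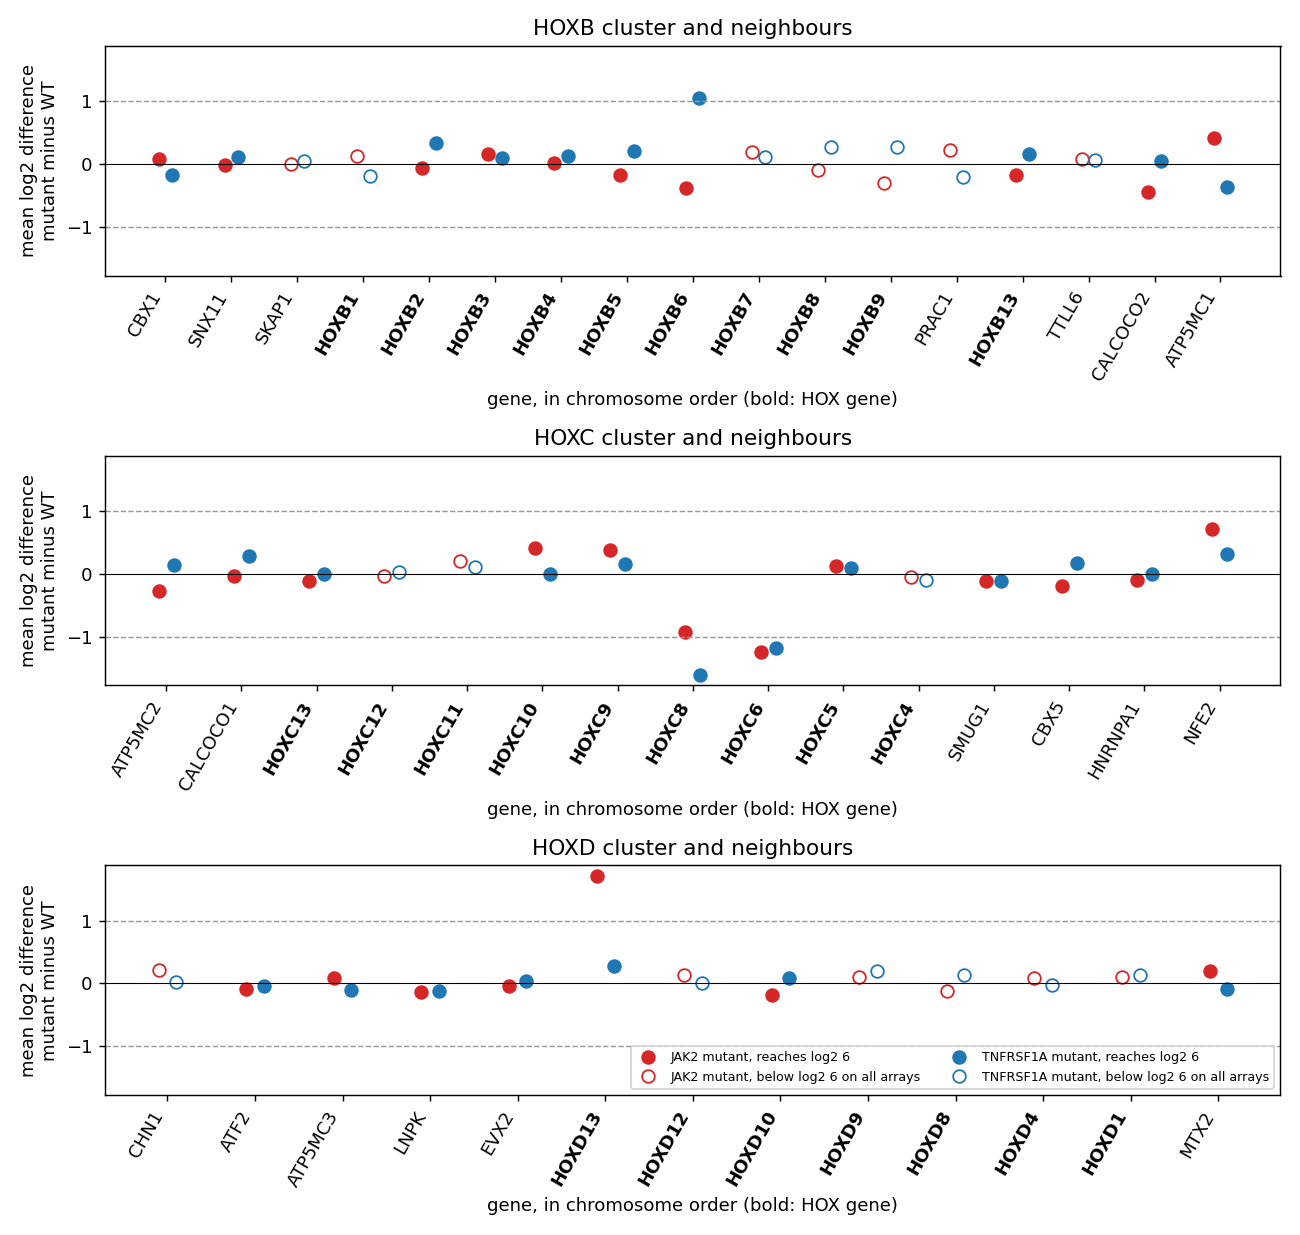
Mean log2 difference between mutant and WT (y axis, mean of the 2 matched pairs of each mutant) for the HOXB, HOXC and HOXD genes and listed neighbours, in chromosome order. Filled points are genes that reach log2 6 on any array, open points are below it on all, and dashed lines mark 2-fold. HOXC8 and HOXC6 stand side by side below 0 in both mutants, while HOXD13 and HOXB6 stand alone.

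HOXD13 was higher in the JAK2 mutant. Its values were 7.28 unstimulated and 7.35 with IFN-gamma in that mutant, against 5.66, 5.56, 5.55 and 5.20 in the WT arrays and 5.64 and 5.67 in the TNFRSF1A mutant. The JAK2 mutant arrays thus lay above the other 6, all of which were in the background range. The differences were 1.63 and 1.80 against WT readings that were not above background. Both pairs passed 2-fold, as 0.182% of all genes did upward, and the arrays lay above all WT arrays with means 2-fold apart, as 0.616% did. By the background bound the differences were at least 1.32 and 1.44, so both stayed 2-fold. The second HOXD13 probe set read 6.43 and 6.49 in the JAK2 mutant and 4.47 to 4.75 in WT, with differences of 1.68 and 2.02, which are at least 0.46 and 0.58 by the bound.

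No other gene of the HOXD region passed 2-fold with it. HOXD12 read 3.58 and 3.50 in the JAK2 mutant against 3.35 to 3.58 in WT, all in the background range. HOXD10 read 6.92 and 6.76, just below its WT range of 6.95 to 7.05. Among 6 listed neighbours, EVX2, the homeobox gene beside HOXD13, read 6.31 and 6.21 against 6.19 to 6.42 in WT. LNPK, ATP5MC3, ATF2 and MTX2 also stayed within 2-fold. CHN1 was in the background range throughout.

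The JAK2 mutant differed from WT in other features too. Of 6 myeloid markers measured, 3 reached log2 6 on any array, and only PRTN3 and MPO passed 2-fold in a JAK2 mutant pair. The granule protease gene PRTN3 read 6.81 and 7.17 there against 5.17 to 5.35 in WT (differences of 1.46 and 1.82, at least 0.85 and 1.25 by the bound because WT was in the background range), and MPO read 7.29 and 7.43 against 6.14 to 6.51 (0.78 and 1.04). Over the 6 measured myeloid markers, PRTN3 and MPO included, the mean log2 level was 6.60 to 6.62 in the JAK2 mutant, 6.00 to 6.06 in WT and 6.16 to 6.22 in the TNFRSF1A mutant. Over the 3 stem and progenitor markers it was 6.24 to 6.33, 6.48 to 6.77 and 6.72 to 6.79. The ratio of the 3' to the 5' actin probe set, which rises when RNA is degraded, was 5.74 and 6.47 in the JAK2 mutant, 4.51 and 5.53 in the TNFRSF1A mutant and 3.27 to 4.81 in WT. The part of maturation or RNA quality in the HOX differences was not tested. Of 4 T-cell markers measured, 1, CD3D, fell in the TNFRSF1A mutant, to 8.74 and 8.71 from 9.31 to 10.03 in WT, with differences of -1.17 and -1.32. In the JAK2 mutant it read 8.83 and 8.92, with differences of -0.50 and -0.39.

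HOXB6 was the 1 HOX gene that passed 2-fold upward in the TNFRSF1A pairs, at 6.85 unstimulated and 6.94 with TNF-alpha. The WT arrays read 6.01, 5.80, 6.11 and 5.91 and the JAK2 mutant arrays 5.73 and 5.63, so neither overlapped with the TNFRSF1A mutant. The differences from matched WT were 1.05 (2.07-fold) and 1.04 (2.05-fold), just past the 2-fold rule, and at least 0.83 and 1.01 by the bound. Both pairs passed upward, as 0.191% of all genes did. By means over all 4 WT arrays HOXB6 missed 2-fold, so 0 HOX genes passed that rule upward in this mutant, where 0.252% of genes did. In the JAK2 mutant the pairs gave -0.27 and -0.47, with the mutant value in the background range. HOXB6 has a single probe set here. Its neighbours HOXB5 (0.13 and 0.28 in the TNFRSF1A mutant) and HOXB7 (in the background range) did not pass 2-fold, nor did the 7 measured neighbours outside the cluster in either mutant.

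**Figure D4:**
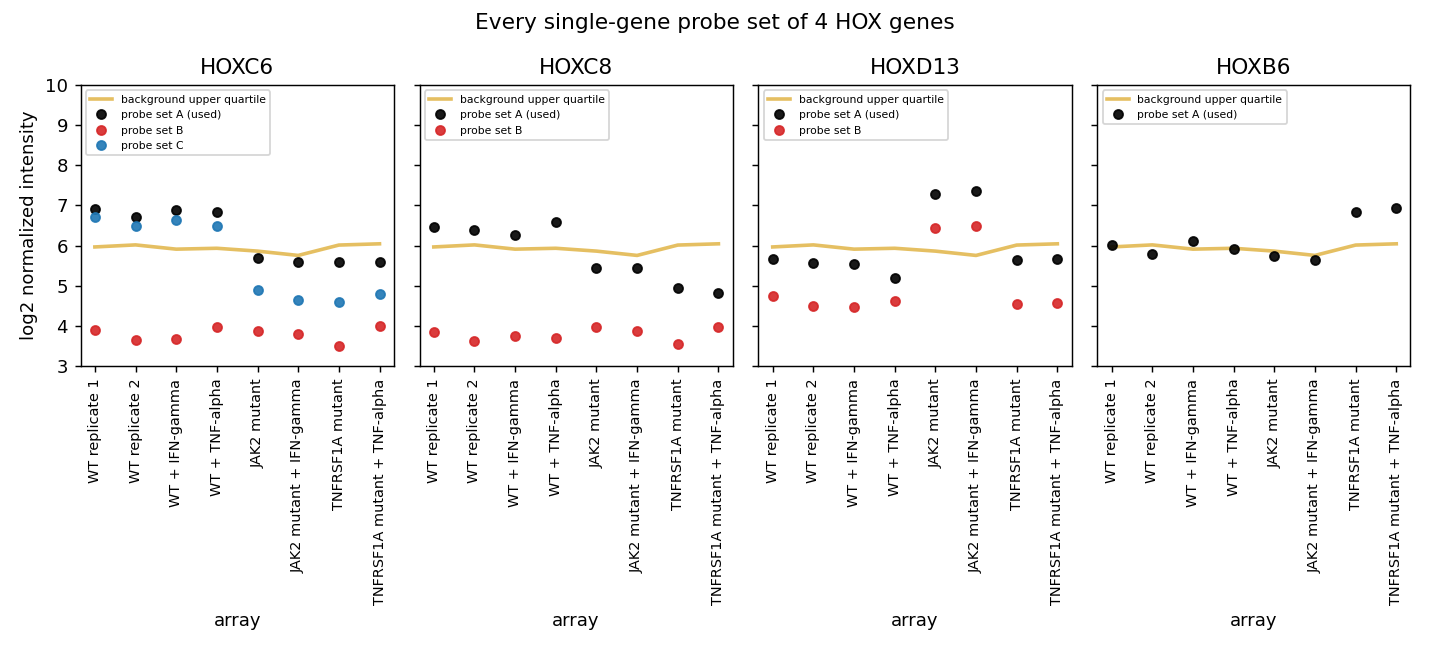
Log2 normalized intensity (y axis) of every single-gene probe set of HOXC6, HOXC8, HOXD13 and HOXB6 on the 8 arrays (x axis), with the background quartile of each array as a line. Both HOXD13 probe sets step up in the 2 JAK2 mutant arrays, 2 of 3 HOXC6 probe sets step down in all 4 mutant arrays, and the dimmest probe sets of HOXC6 and HOXC8 stay near log2 4 throughout.

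A limma fit across all 11529 genes, with cell line, IFN-gamma and TNF-alpha as additive terms over the 8 arrays, gave p-values from 3 residual degrees of freedom. They measure the spread between these arrays, not between independent mutant lines. In the JAK2 mutant, 3 of the 14 HOX genes had an adjusted p (Benjamini-Hochberg) below 0.05, where 5.06% of all genes did. HOXD13 was among them, with 1.76 (SE 0.12), but it reached log2 6 on the JAK2 mutant arrays alone and so entered the fit through the group tested; its p-value supports nothing here. HOXC6 differed from WT by -1.18 (SE 0.10, limma adjusted p = 0.00537) and HOXC8 by -0.94 (SE 0.11, limma adjusted p = 0.0123). In the TNFRSF1A mutant the count was 3 of 14 where 0.59% of all genes passed. HOXC8 differed by -1.59 (SE 0.11, limma adjusted p = 0.00497), HOXC6 by -1.24 (SE 0.10, limma adjusted p = 0.0112) and HOXB6 by 0.96 (SE 0.12, limma adjusted p = 0.0440). HOXC6 and HOXC8 reached log2 6 on the WT arrays alone and so entered the fit through a group compared. Their p-values in either mutant are no support either. Both mutants were set against the same 4 WT arrays in this fit. A further fit had the experiment as a term, which keeps each mutant to the WT arrays of its own experiment. In it those 6 differences were 1.71, -1.24, -0.92, -1.61, -1.18 and 1.04. Each kept a limma adjusted p below 0.05, but for HOXD13, HOXC6 and HOXC8 that adds no support, by the same limit. The fit with that term called 6 of 14 HOX genes in the JAK2 mutant, where 26.0% of all genes passed, and 4 of 14 in the TNFRSF1A mutant, where 6.8% did. Its further calls in the JAK2 mutant were HOXB6 (-0.37, limma adjusted p = 0.0222), HOXC9 (0.38, limma adjusted p = 0.0491) and HOXC10 (0.40, limma adjusted p = 0.0449), and HOXC10 reached log2 6 on 1 JAK2 mutant array alone. In the TNFRSF1A mutant it was HOXB2 (0.34, limma adjusted p = 0.0462). None of these 4 calls was made without the term. The contrast of the 2 mutants called 2 of 14 without the term (HOXB6 and HOXD13, 3.78% of all genes) and 4 of 14 with it (HOXB2, HOXB6, HOXC8 and HOXD13, 16.1%). For HOXC6 and HOXC8 that contrast sets background readings against each other and orders nothing.

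**Figure D5:**
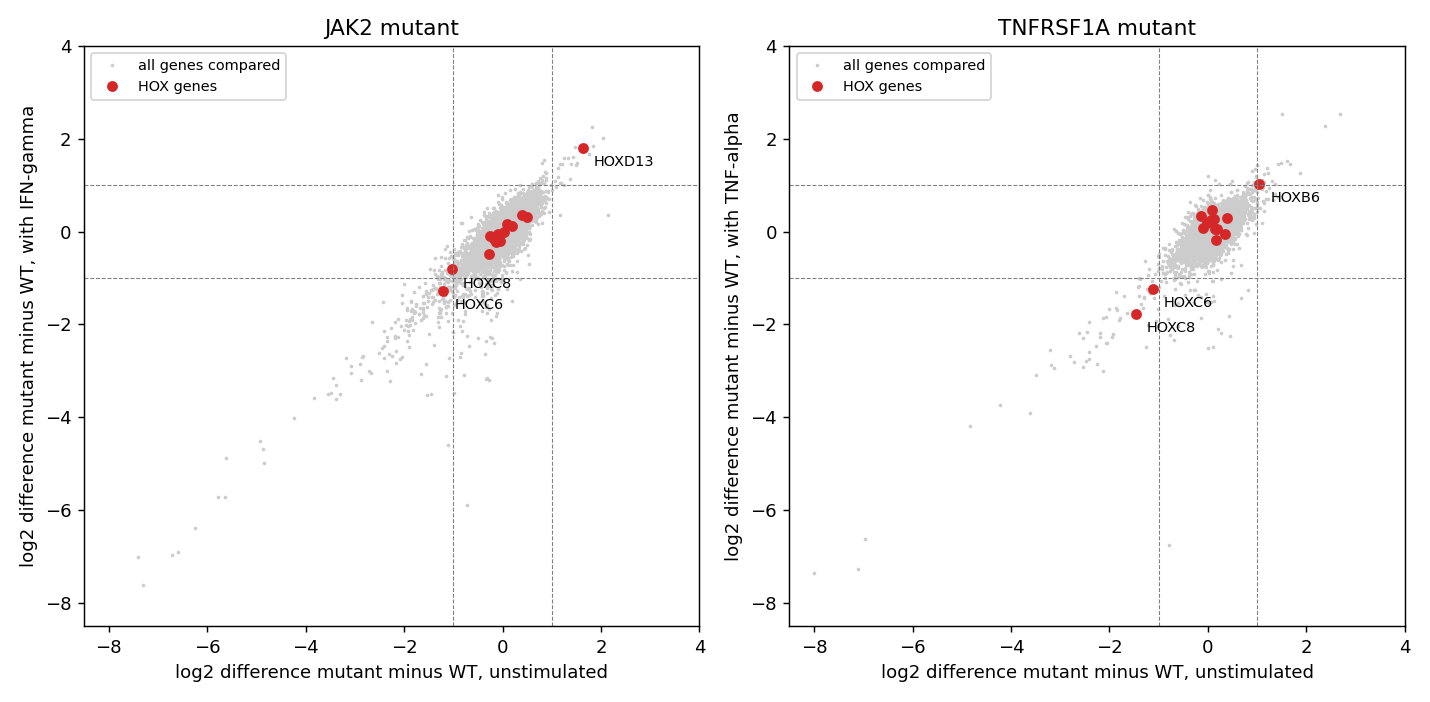
Log2 difference between mutant and WT in the unstimulated pair (x axis) and in the pair with cytokine (y axis), for the JAK2 mutant (left) and the TNFRSF1A mutant (right). Grey points are the 11529 genes compared, red points are the 14 HOX genes and dashed lines mark 2-fold. The named HOX genes lie near the diagonal, so the 2 pairs of a mutant, which share no array, gave differences of similar size.

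HOXB2 and HOXB3 differed between the 2 experiments. HOXB2 read 9.49 to 9.58 on the 4 arrays of the IFN-gamma experiment and 9.96 to 10.38 on those of the TNF-alpha experiment, and HOXB3 8.31 to 8.68 and 8.88 to 9.03. The arrays of the 2 experiments did not overlap for either gene, as was so for HOXB5 in the same direction and HOXC10 in the other. Of all genes, 17.3% were higher and 22.5% lower in that way, so 3 and 1 of 14 HOX genes are near or below the background. Between the unstimulated WT arrays the differences were 0.37 for HOXB2 and 0.57 for HOXB3, and 0 of 14 HOX genes passed 2-fold, where 0.954% of all genes were higher and 1.03% lower. The other 3 HOXB3 probe sets, in or near the background range, differed by -0.12, -0.19 and 0.27. Within the TNF-alpha experiment HOXB2 was higher in the mutant by 0.39 and 0.29.

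All 10 measured cofactor genes reached log2 6 on at least 1 array, among them PBX3 (9.57 to 9.97), PBX2 (9.18 to 9.64) and MEIS1 (7.48 to 7.98), and 0 passed 2-fold in any comparison. Of the 16 genes of the KMT2A and DOT1L complexes, which write the marks of active HOX chromatin, 0 passed 2-fold with a cytokine or between mutant and WT. MLLT3, a subunit of the elongation complex, differed between the unstimulated WT arrays by 1.23.

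Of 26 measured Polycomb genes, 1 passed 2-fold between mutant and WT. PHF19, an accessory subunit that guides PRC2 to its targets, read 10.25 and 10.21 in the JAK2 mutant against 11.26 to 12.09 in WT, with differences of -1.11 and -1.05 from the matched arrays. In the TNFRSF1A mutant it read 12.03 and 11.98. PHF19 itself differed between the WT arrays of the 2 experiments by 0.73, with the higher value in the TNF-alpha experiment. The catalytic and core subunit genes EZH2, EED and SUZ12 stayed within 2-fold in all 9 comparisons, and EZH1 differed between the unstimulated WT arrays by 1.00. The demethylase gene KDM6A read 8.43 to 9.01, and KDM6B was below log2 6.

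Upstream inputs did not pass 2-fold either. Of 12 measured CDX and retinoic acid genes, 6 reached log2 6 and 0 changed in any comparison, with CDX2 at 7.26 to 7.78. Of 14 genes described as targets of HOXA9 and MEIS1 in leukaemia, 13 were compared. The receptor kinase gene FLT3 was higher in the TNFRSF1A mutant, at 7.67 and 7.66 against 6.40 to 6.68 in WT, with differences of 0.99 and 1.18, of which the second passed 2-fold. MECOM differed between the unstimulated WT arrays by -1.21. HOXB-AS3, the 1 cluster lncRNA measured, read 5.47 to 6.00, and 0 of the 6 listed neighbours of the HOXA cluster passed 2-fold in any comparison.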

How the data were processed

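RNA of 8 KBM7 samples was measured on 1-colour Affymetrix arrays, 1 per sample. Each deposited value is a normalized intensity per probe set, for which the submitters' processing notes name RMA and Affymetrix Expression Console 1.1. The linear scale was inferred from the values. RMA makes array distributions equal, so a shift of most genes one way would not be seen. Log2 was taken with no pseudocount.

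Probe sets were named from the platform annotation, with symbols updated through RefSeq (GRCh38.p14): 44994 of 49395 had 1 gene. The 11529 of 18132 genes that reached log2 6 on any array were compared. Differences between 2 arrays were called at 2-fold. The limma fits (limma 3.58.1) and the 2-fold rule were tested on simulated data. Alternatives were other thresholds, filters, probe set rules, controls, loess (span 0.3) and the limma fits. Background bounds and the experiment term were added after the data were seen. No coordinates are given for array features, because the sources used here do not give their build. The HOX genes, the 11 other gene lists and 9 marker lists were chosen with earlier results of these data known. Every HOX gene is accounted for. Those at log2 6 on any array or past 2-fold are named with values, as are list members past 2-fold, or else up to 3 bright ones; PAX5, KRT18, EZH2, EED, SUZ12, KDM6B and other markers were picked after their values were seen. Because values rest on single arrays, the number of arrays limits precision.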

Additional observations from a re-analysis of the deposited data

Results flagged for a closer look

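The 4 results below were picked out because the difference from WT was not the same in the 2 mutant lines, by a test of that difference itself in the limma fit with cell line, cytokines and experiment as terms (2 residual degrees of freedom, so it rests on few arrays). For HOXD13 the JAK2 mutant's difference from WT exceeded that of the TNFRSF1A mutant by 1.44 (SE 0.15, limma adjusted p = 0.00882), and by 1.54 without the experiment term (limma adjusted p = 0.0106). For HOXB6 the same contrast was -1.42 (SE 0.10, limma adjusted p = 0.00296), and -1.25 without the experiment term (limma adjusted p = 0.0170). For HOXC8 it was 0.69 (SE 0.14, limma adjusted p = 0.0361), and 0.66 without the term (limma adjusted p = 0.0641). All 4 HOXC8 mutant values lie in the background range, and by the bound HOXC8 was lower by at least 0.61 and 0.51 in the JAK2 mutant and 0.38 and 0.55 in the TNFRSF1A mutant, so this contrast shows no difference between the mutants. For HOXB2 it was -0.40 (SE 0.09, limma adjusted p = 0.0425), and -0.67 without the term, where the call was lost (limma adjusted p = 0.116). Of all genes compared, 16.1% and 3.78% passed in these 2 fits. HOXD13 entered the fit only through the JAK2 mutant arrays, so its p-value is no support. The WT values of HOXD13 and HOXB6 lie in or near the background range, which limits their sizes. The JAK2 mutant values of HOXB6 lie in that range too. By the bound HOXB6 was lower than WT there by at least 0.14 and 0.35. The TNFRSF1A mutant values of HOXD13 also lie in the background range.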

How the results depend on the processing

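Of the recomputed counts, 89 stayed within 1.5 times of the reported one and 29 did not. A rule of 3-fold left 1 HOX gene (HOXD13) in each JAK2 pair and 0 and 1 (HOXC8) in the TNFRSF1A pairs, against 3, 2, 3 and 3; for mutant arrays outside all 4 WT arrays it left 1 and 0 of 2 and 2. A level filter at log2 8 left 0 in each of these 6 counts, since it removes the changed genes. With the mean of all probe sets the 4 pairs gave 1 each (HOXD13, or HOXB6) and the arrays outside WT 1 and 0, because the mean takes HOXC6 and HOXC8 below log2 6. Background bounds gave 0 and 1 in the TNFRSF1A pairs and 0 for its arrays outside WT. The limma fit of 7 conditions, with 1 residual degree of freedom, called 0 HOX genes in the 4 pairs at adjusted p below 0.05, with 4, 3, 3 and 3 at unadjusted p below 0.05. The fit with the experiment term called 6 (JAK2) and 4 (TNFRSF1A). Leaving out WT replicate 1 or 2 gave 2 to 2 for the JAK2 mutant and 2 to 2 for the TNFRSF1A mutant. Expressed genes numbered 15 at log2 5 and 3 at log2 7, against 9. Of the recomputed differences of single HOX genes, 420 moved by less than 0.38 and 14 by more, and 0 called ones changed sign. No paired test was possible, because the labels number the WT arrays alone, and each stimulated WT array shares its number with 1 unstimulated array. The groups thus share fewer than 2 numbers. The pairs by treatment and the fit with experiment use the number only to place each WT array in its experiment.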
